A study of Mus musculus with 2 samples.

Results

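The genes described here are 36 genes of the mitotic spindle, the kinetochore and the spindle checkpoint, taken by name from their known roles, with earlier results of these data in view. They were matched through gene identifiers, accessions and older symbols to an Illumina expression array on which the probes stand for 17872 genes. Of the 36, 32 matched at least 1 probe, 47 probes in all. On the array Cdk1 is named Cdc2a, Aurka is named Stk6 and Nuf2 is named Cdca1. Mki67, Aurkb, Cenpf and Racgap1 matched no probe, so no expression value is given for them.

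RNA came from back-skin epidermis of C57BL6 mice at postnatal day 5, lifted off the dermis with dispase. DKO mice carried floxed Vdr and floxed Casr on both alleles (VDR fl/fl CaSR fl/fl) together with Cre recombinase driven by the keratin 14 promoter, a design that, per the labels' protocols, removes both receptors from keratinocytes that express keratin 14. CON mice were littermates with the same floxed alleles and no Cre. Each genotype was measured on 1 array of RNA combined from 3 mice, and the protocol text calls the knockout pool VDR KO where titles and genotypes name both receptors. With 1 array per group no test between groups is possible, no p-value is given, and every difference is only as precise as 2 arrays allow.

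Cells enter mitosis when cyclin-dependent kinase 1 pairs with B-type cyclins. Kinesins and microtubule-binding proteins then build the spindle, and kinetochores on the centromeres attach to it. The spindle checkpoint holds back the anaphase-promoting complex (APC/C), the ubiquitin ligase that starts chromosome separation, until the attachments are made. In skin of this age mitoses occur in the basal layer of the epidermis and in the matrix of growing hair follicles. Many of these genes are transcribed late in the cell cycle, and a promoter element known as the cell cycle genes homology region (CHR) and the CCAAT box bound by the factor NF-Y are textbook features of their promoters.

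The promoters of 4 of the genes are shown because they carry both elements and belong to genes with the larger differences below. They are the 120 bases before the gene start in RefSeq (build GRCm38.p6), written 5′ to 3′ on the gene's strand, and capitals mark CHR letters (TTTGAA or TTTAAA) and CCAAT on either strand. Kif22 lies on the minus strand at chr7:127042421-127042540, Cdc20 on the minus strand at chr4:118437344-118437463, Cenpa on the plus strand at chr5:30666766-30666885 and Prc1 on the plus strand at chr7:80294356-80294475.
Kif22: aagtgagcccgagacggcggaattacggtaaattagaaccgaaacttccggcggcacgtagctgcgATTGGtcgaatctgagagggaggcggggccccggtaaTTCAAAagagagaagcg
Cdc20: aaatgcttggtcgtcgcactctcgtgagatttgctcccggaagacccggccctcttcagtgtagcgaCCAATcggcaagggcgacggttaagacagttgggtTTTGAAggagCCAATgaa
Cenpa: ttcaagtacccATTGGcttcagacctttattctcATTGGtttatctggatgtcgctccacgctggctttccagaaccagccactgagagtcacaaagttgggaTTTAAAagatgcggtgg
Prc1: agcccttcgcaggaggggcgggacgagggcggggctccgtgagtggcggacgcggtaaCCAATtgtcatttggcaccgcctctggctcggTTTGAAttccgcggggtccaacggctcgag
The CHR letters begin 17 bases before the start in Kif22 and in Cenpa, 18 bases before it in Cdc20 and 30 bases before it in Prc1. In each of the 4 stretches a CCAAT match lies upstream of them.

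A RefSeq window from 250 bases before to 50 bases after the start was found for 31 of the 36 genes. There were 33 windows, since Bub3 and Prc1 had 2 overlapping windows each. TTTGAA, read on either strand, occurred in 25 of the 33 windows (75.8%) and in 17.9% of all 32851 windows of the table. With TTTAAA added, the CHR letters occurred in 28 windows (84.8%), against 27.6% of all windows. CCAAT on either strand occurred in 26 windows (78.8%), against 37.4%, and TTTGAA together with CCAAT in 22 (66.7%), against 6.95%. Overlapping matches were counted separately. TTTGAA lay wholly within 50 bases of the start in 22 of the 33 windows (66.7%) and in 4.94% of all windows, a distance chosen after the matches had been seen. In windows of the other mitotic genes listed below, TTTGAA was present in 52 of 131 (39.7%), CCAAT in 58.8%, and TTTGAA within 50 bases of the start in 29.8%. In windows of DNA replication genes TTTGAA was present in 5 of 42 (11.9%), CCAAT in 26 of 42 (61.9%), and TTTGAA within 50 bases of the start in 4.76%. These are matches of letters and not measurements of binding.

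**Figure D1:**
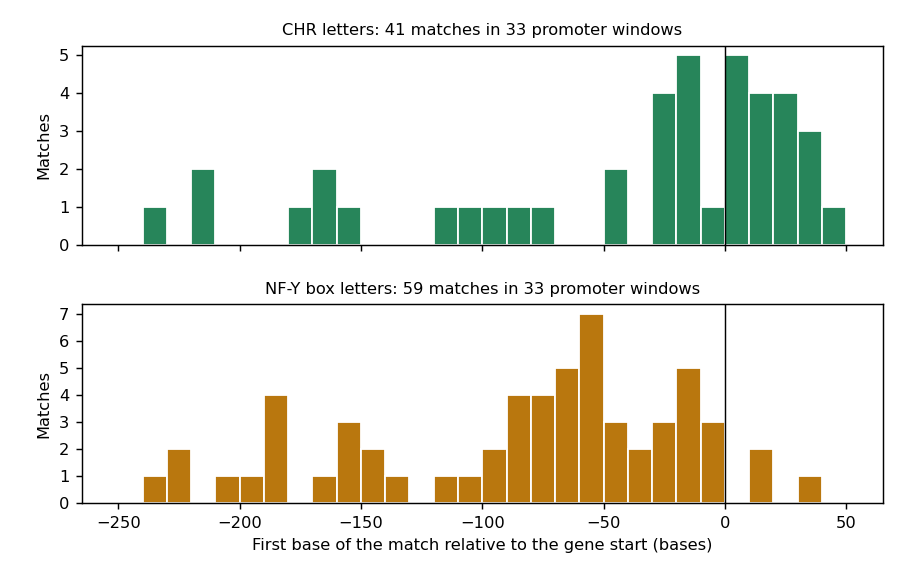
Position of promoter matches in the 33 windows, with the distance of the match's first base from the gene start on the horizontal axis (bases, negative before the start) and the number of matches per 10 bases on the vertical axis. The upper panel shows the CHR letters, 29 of whose 41 matches begin within 50 bases of the start, and the lower panel the CCAAT letters (the NF-Y box), 38 of whose 59 matches begin in the 100 bases before the start.

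Of the 32 genes with a probe, 23 were detected, 22 of them on both arrays. A gene with several probes was read from the one of highest mean signal, called its main probe, and counted as detected when that probe had a detection p-value under 0.01 on at least 1 array. That p-value compares a probe with the array's negative controls, not one genotype with the other. Values are background-corrected, quantile-normalized signals on the log2 scale, and each difference is DKO minus CON. The 9 genes not well above background were Ccna2, Ccnb2, Cks2, Cenpe, Nuf2, Bub1, Ttk, Ube2c and Kif20a. Each had 1 probe, their raw signals lay between 118.9 and 141.4, and the lowest detection p-value among them was 0.065, for Cenpe on CON. No difference is given for them.

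The mitotic genes read lower on the DKO array as a group, with a modest median difference. Of the 23 detected genes 22 had a lower signal in DKO, against 52.6% of all 8472 detected genes, and 1, Kif23, had a higher one. With detection required on both arrays, which drops Tpx2, 21 of 22 were lower, against 51.3% of the 7659 genes that remain. The median difference was -0.28, which is a 1.21-fold lower signal, and the quartiles were -0.40 and -0.20. Over all detected genes the median was -0.02 and the quartiles were -0.26 and 0.21. At least 1.5-fold lower in DKO were 3 of the 23 genes, against 7.37% of all detected genes, and 0 were at least 1.5-fold higher, against 6.09%. Without Tpx2, 2 of the 22 genes detected on both arrays were at least 1.5-fold lower, against 5.46% of genes so detected. None was at least 2-fold lower, against 1.39% of all detected genes, or at least 2-fold higher, against 1.05%. In bulk RNA, fewer cells in mitosis and less of these transcripts per cell cannot be told apart.

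Where a gene had several probes detected on both arrays, the SD of their differences was 0.24 (log2) when pooled over 1767 genes. This is the only internal measure of error here and leaves out variation between mice and between arrays. Of the 23 genes 15 were lower by at least that amount, against 26.3% of all detected genes. Among the 6844 detected genes in the same range of mean signal (log2 5.61 to 11.04), 51.9% were lower, 6.21% were at least 1.5-fold lower, and the median was -0.02. The 11 dimmer mitotic genes had a median of -0.28 and the 12 brighter ones a median of -0.33.

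The group's median was below 0 under each processing tried, and its size varied. Under 11 other settings the median of the mitotic genes lay between -0.39, with median scaling, and -0.18, without background correction. The count of genes at least 1.5-fold lower was 5 of 23 with median scaling, where 10.6% of all genes counted were that much lower. The count was 1 of 23 without background correction, against 1.499% of all genes. As reported it was 3 of 23, against 7.37%. Nusap1 passed under each setting.

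**Figure D2:**
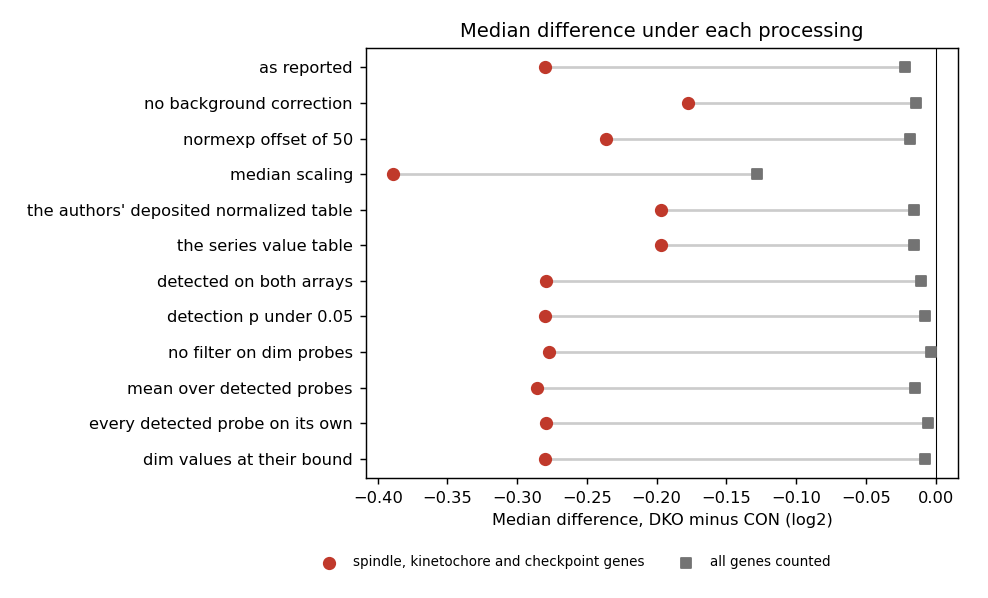
Median difference, DKO minus CON (log2, horizontal axis), of the mitotic genes (red points) and of all genes counted (grey squares) under the reported processing and 11 alternatives (rows). The red point lies left of the grey square in every row, at -0.28 against -0.02 as reported and at -0.39 against -0.13 with median scaling.

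**Figure D3:**
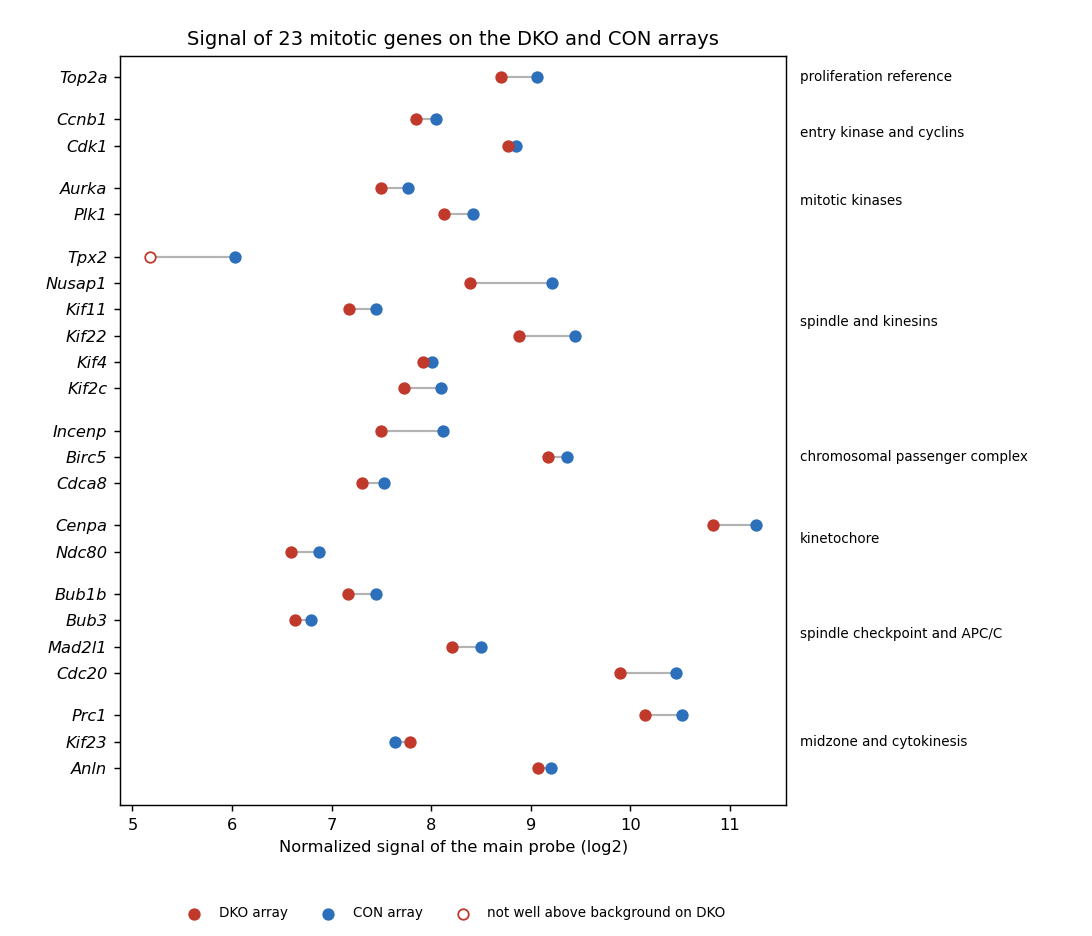
Normalized signal of the main probe (log2, horizontal axis) for the 23 detected genes, grouped by role, with red points for the DKO array, blue points for the CON array and an open point where DKO was not well above background. The red point lies left of the blue one for 22 genes and right of it for Kif23, and signals span from 5.18 for Tpx2 on DKO to 11.26 for Cenpa on CON.

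All 6 spindle assembly genes were detected, 5 of them on both arrays. Those 5 were lower in DKO, with a median of -0.37, and the median was -0.47 with Tpx2 included. Nusap1, which bundles microtubules around chromosomes, read 8.39 on DKO and 9.21 on CON. That is 1.77-fold lower, and 2.75% of detected genes lay below it. Neither array detected its 2 other probes, so a single probe carries this value. Tpx2, which nucleates spindle microtubules and activates Aurora A, read 5.18 on DKO, where it was not well above background, and 6.03 on CON. Against the lowest signal detected on DKO it was at least 1.57-fold lower, a bound that holds under the reported processing only. It entered through CON alone, so its direction was set by the filter. Its difference was -0.50 with a normexp offset of 50, -0.34 in the authors' deposited table and -0.26 without background correction.

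Among the spindle kinesins, Kif22, the chromosome-arm motor Kid, read 8.88 on DKO and 9.45 on CON. It was 1.48-fold lower, just outside the 1.5-fold rule. Kif2c, a microtubule depolymerase of the centromere, read 7.72 on DKO and 8.10 on CON, 1.29-fold lower. Kif11, the plus-end motor Eg5 that pushes spindle poles apart, read 7.17 on DKO and 7.45 on CON, 1.21-fold lower. Kif4, a chromokinesin, had 3 detected probes with differences of -0.09, -0.08 and 0.04, so its direction differed between probes and its size was within their spread. Of the 4 kinesins Kif22 thus had the largest difference and Kif4 the smallest.

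The chromosomal passenger complex corrects faulty attachments of kinetochores and later directs cytokinesis. Its 3 detected subunits were all lower in DKO, with a median of -0.22. Incenp, the scaffold that holds the Aurora B kinase, read 7.50 on DKO and 8.12 on CON. At 1.54-fold lower it was the third gene past the 1.5-fold rule, just inside it. Birc5, survivin, had 3 probes detected on both arrays, which differed by -0.19, -0.47 and -0.46. The brightest of them, its main probe, thus gave the smallest difference. Cdca8, borealin, read 7.30 on DKO and 7.53 on CON, a difference of -0.22 that is below the pooled SD between probes.

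Of the kinetochore genes only Cenpa and Ndc80 were detected. Cenpa, the histone H3 variant that marks centromeres, was the brightest of the mitotic genes and read 10.83 on DKO and 11.26 on CON. Its signal was 1.35-fold lower in DKO. Ndc80, a subunit of the complex that binds microtubule ends, read 6.59 on DKO and 6.87 on CON, with a difference of -0.28. Nuf2, its partner in the same complex, was not well above background, nor was the kinetochore kinesin gene Cenpe.

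Checkpoint and APC/C genes were lower by small amounts, 4 of 4 detected, with a median of -0.29. Mad2l1 encodes Mad2, the checkpoint protein that captures Cdc20, and read 8.21 on DKO and 8.50 on CON, a difference of -0.30. Bub1b, which encodes BubR1 of the mitotic checkpoint complex, differed by -0.28, from signals of 7.17 on DKO and 7.45 on CON. Bub3, which brings Bub1 and BubR1 to kinetochores, differed by -0.16, less than the spread between probes. Cdc20, the APC/C activator that the checkpoint restrains, read 9.90 on DKO and 10.46 on CON by its main probe, 1.48-fold lower. Its 4 detected probes disagreed, since the other 3 differed by -0.21, -0.14 and 0.05. Averaged over the 4 probes Cdc20 differed by -0.22, so the main probe alone places it near 1.5-fold.

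Of the kinases and cyclins of mitotic entry, all 4 detected were lower, Cdk1 by the smallest amount. Cdk1, the kinase that drives entry, read 8.77 on DKO and 8.85 on CON, a difference of -0.08. Its 2 other probes were not well above background. Ccnb1, cyclin B1, had 2 detected probes with differences of -0.21 and -0.37. Plk1, Polo-like kinase 1, which acts at centrosomes and kinetochores, differed by -0.29, with 8.13 on DKO and 8.42 on CON. Aurka, the spindle-pole kinase Aurora A, differed by -0.28, with 7.50 on DKO and 7.77 on CON. Top2a, the topoisomerase that untangles sister chromatids, is often used as a proliferation marker, and it read 8.70 on DKO and 9.07 on CON, 1.29-fold lower.

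Genes of the spindle midzone and of cytokinesis were mixed. Prc1, which bundles the antiparallel microtubules of the midzone, read 10.15 on DKO and 10.52 on CON, 1.29-fold lower. Anln, the contractile ring protein anillin, differed by -0.13, and its 2 other probes were not well above background. Kif23, the kinesin of centralspindlin, was the exception to the direction of the group. It read 7.79 on DKO and 7.64 on CON, a difference of 0.15, which is below the pooled SD between probes.

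**Figure D4:**
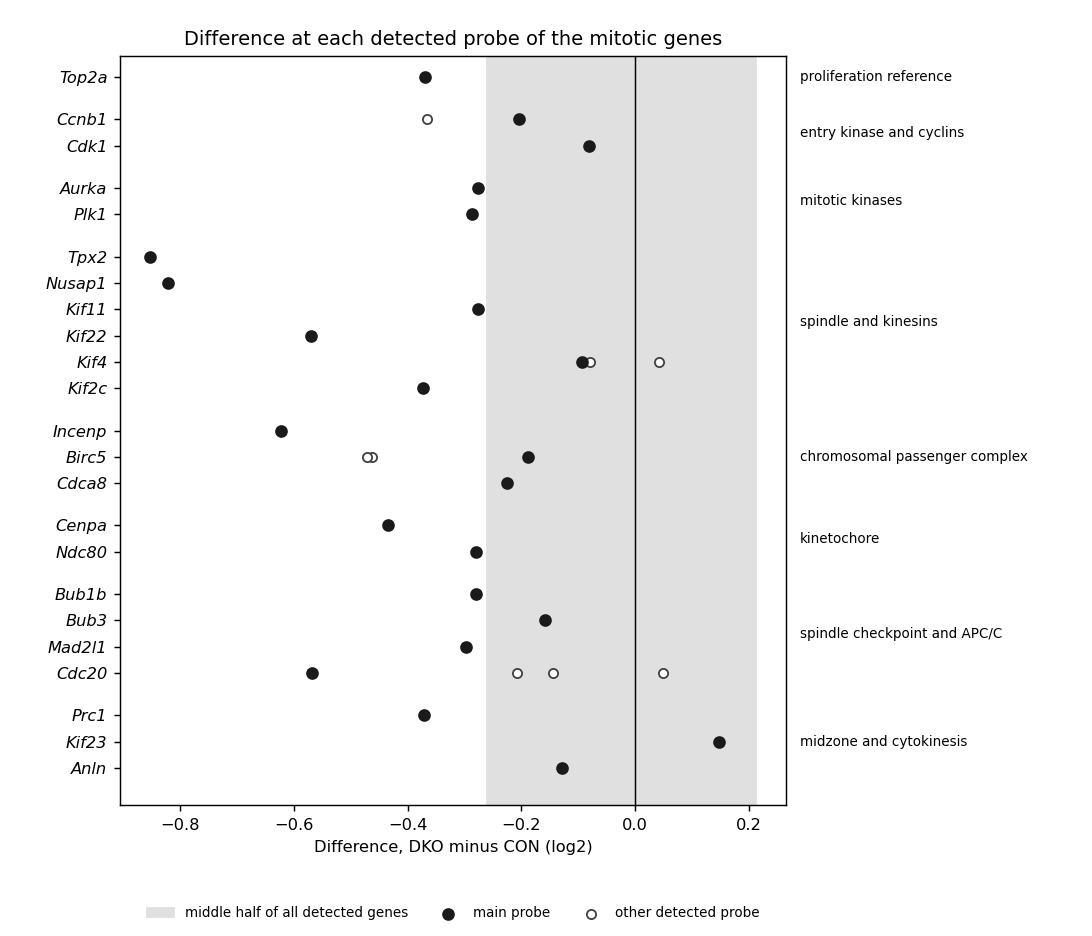
Difference in log2 signal, DKO minus CON (horizontal axis), at each detected probe of the 23 genes, with filled points for main probes, open points for other detected probes and a grey band for the interquartile range of all detected genes (-0.26 to 0.21). Of 31 detected probes 28 lie below 0, and the 3 above it belong to Kif4, Cdc20 and Kif23. Of all 11221 detected probes 50.6% were lower.

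Other mitotic genes, listed by function with earlier results of these data known, were mixed. Across 4 lists of 137 genes, 82 were detected, of which 52 were lower and 29 higher in DKO, with a median of -0.17. Of the 75 detected on both arrays, 47 were lower and 27 higher, with a median of -0.14. Among those 75, 7 were at least 1.5-fold lower, against 5.46% of all genes detected on both arrays, and 1 was at least 1.5-fold higher. Spindle, motor and cytokinesis genes outside the 36 were detected for 19 genes. Of these 15 were lower and the median was -0.21. On both arrays 16 were detected, 13 of them lower and 4 at least 1.5-fold lower, with a median of -0.20. Of all genes so detected 51.3% were lower and 5.46% at least 1.5-fold lower. Kif15, a kinesin that helps keep spindle poles apart, differed by -0.75, a 1.68-fold lower signal. Stmn1, the tubulin-sequestering protein stathmin, differed by -0.78, and Gtse1, which regulates spindle microtubules, by -0.66. Plk4, the kinase of centriole duplication, was not well above background on DKO and was at least 1.14-fold lower under the reported processing. It entered through CON alone, so its direction was set by the filter.

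The remaining lists lay closer to all detected genes. Kinetochore and checkpoint genes outside the 36 had a median of -0.10 over 29 detected genes, 17 lower and 11 higher. Of the 27 detected on both arrays, 16 were lower and 10 higher. Cenph, of the inner kinetochore, differed by -0.66, Pmf1, of the complex that joins inner and outer kinetochore, by -0.63, and Cenps, also of the inner kinetochore, by -0.59. Cenpt, which links the inner kinetochore to the NDC80 complex, differed by 0.64 in the other direction. Mitotic entry, APC/C and separase genes had a median of -0.13 over 22 genes, 13 lower and 9 higher, and 0 passed 1.5-fold. Both arrays detected 21 of them, 12 lower and 9 higher. Cdca3, a factor of mitotic entry, differed by -0.48, Melk, a mitotic kinase, by -0.41 and Cdc25c, a phosphatase that activates Cdk1, by -0.38. The APC/C subunit gene Cdc27 was not well above background on DKO and was at least 1.27-fold lower under the reported processing. Condensin and cohesin genes had a median of -0.16 over 12 genes, 7 lower and 5 higher. Both arrays detected 11 of them, 6 lower and 5 higher. The condensin genes Ncaph and Ncapd2 differed by -0.42 and -0.33, and the 3 detected probes of Ncapd2 spread from -1.17 to -0.33. The cohesin regulator Pds5b differed by -0.30, and the condensin gene Ncapg2 was not well above background on DKO. Cdc27 and Ncapg2 entered through CON alone, so their direction was set by the filter.

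DNA replication genes, which act earlier in the cell cycle, also read lower. Of 35 detected replication genes 32 were lower and 7 at least 1.5-fold lower, with a median of -0.35. Of all detected genes 52.6% were lower and 7.37% at least 1.5-fold lower. Both arrays detected 34 of the replication genes. Of those 34, 31 were lower and 7 at least 1.5-fold lower, with a median of -0.36. Of all genes so detected 51.3% were lower and 5.46% at least 1.5-fold lower. The helicase subunit gene Mcm2 read 8.17 on DKO and 9.06 on CON, a difference of -0.89. Pold1, the catalytic subunit of DNA polymerase delta, differed by -0.69, the DNA ligase gene Lig1 by -0.67 and the clamp loader gene Rfc1 by -0.63. The other detected probe of Lig1 differed by 0.08. Pcna, the sliding clamp, differed by 0.17 at signals of 5.65 on DKO and 5.48 on CON. That difference is below the pooled SD between probes. Both signals lay near the lowest detected on each array, 5.38 on DKO and 5.28 on CON.

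**Figure D5:**
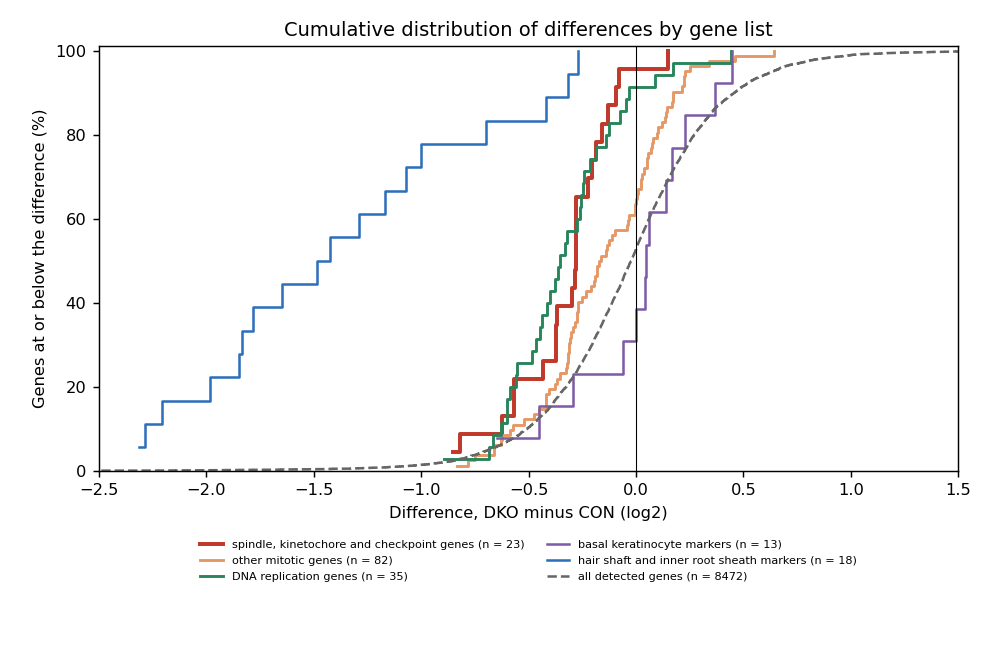
Share of genes (%, vertical axis) at or below each difference, DKO minus CON (log2, horizontal axis), for 6 sets of detected genes. The 23 mitotic genes (median -0.28) run beside the DNA replication genes (median -0.35) and left of all detected genes (median -0.02), and the hair shaft and inner root sheath markers lie farthest left (median -1.45).

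Promoter letters were also set against the differences. Among the 36, 21 detected genes had a promoter window. The 17 with TTTGAA had a median difference of -0.28 and the 4 without it a median of -0.25. Of those 4, Ccnb1 and Birc5 carried the other CHR letters, TTTAAA, and Nusap1 and Mad2l1 carried neither form. Nusap1 also had no CCAAT in its window. Among detected genes outside the 36, 231 had TTTGAA within 50 bases of the start. Of these 147 (63.6%) were lower in DKO, with a median of -0.11, against 52.6% and a median of -0.02 for the 5777 genes with no TTTGAA in their windows. That distance was chosen after the matches had been seen, and the 959 genes with TTTGAA anywhere in a window were lower in 55.3%, with a median of -0.04. Of the 231 genes, 19 belong to the lists of other mitotic genes.

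Markers of other cell populations moved on the same arrays, and their part in the differences above was not tested. Hair shaft and inner root sheath markers mark follicles whose matrix holds dividing cells. They were lower in the 14 genes detected on both arrays, 11 of them at least 2-fold. Of all detected genes 52.6% were lower, 47.1% higher and 1.39% at least 2-fold lower. Another 4 of the hair markers were detected on CON alone, which set their direction. The median was -1.45 over all 18, and the summed normalized signal of detected genes was 13803 on DKO and 38268 on CON. The summed signal of the 23 mitotic genes was 9200 on DKO and 11899 on CON, a difference of -22.7%. Bright genes weigh most in such a sum, among them Cdc20, whose probes disagreed. By the median difference the 23 genes were 17.6% lower. Krt31 and Krt33a, keratins of the hair shaft, differed by -2.31 and -2.28. Basal keratinocyte markers were detected for 13 of 14 genes with a probe, 4 of them lower and 8 higher. Of the 12 detected on both arrays, 4 were lower and 7 higher. The median of the 13 genes was 0.04, and their summed signal was 62036 on DKO and 61037 on CON. In that list Igfbp5, an IGF-binding protein, differed by -0.65 and the integrin gene Itga6 by -0.45. Suprabasal markers, detected for 14 genes, had a median of 0.26, with 10 higher and 4 lower, with summed signals of 118362 on DKO and 108336 on CON. There the barrier enzyme gene Tgm3 differed by 0.94 and the desmosomal cadherin gene Dsc1 by 0.91.

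T cell markers, detected for 7 genes of which 5 were lower, had a median of -0.44 and summed signals of 1848 on DKO and 2198 on CON. Lck and Nkg7 differed by -0.70 and -0.65. The CD3 genes went both ways, with Cd3e at -0.44 and Cd3d and Cd3g each at 0.03. Melanocyte markers had a median of -0.29 over 7 genes, 6 lower, with sums of 3722 on DKO and 5589 on CON. Gpnmb differed by -0.94 and Pmel by -0.61, and other detected probes of them by -0.15 and 0.26. Langerhans and antigen-presenting cell markers were higher in 6 of 6 detected genes, with sums of 9356 on DKO and 8166 on CON, and Cd207 differed by 0.60. Of all detected genes 47.1% were higher and 52.6% lower. Dermal fibroblast markers were detected for 6 of 12 genes, 2 lower and 4 higher, with sums of 3495 on DKO and 3170 on CON. Mgp differed by -1.23 and Col6a1 by 0.98. Endothelial markers were detected for 0 of 8 genes, skeletal muscle markers for 1 of 10, myeloid markers for 1 of 9 and erythroid markers for 2 of 5. Of these, Mylpf of muscle differed by 0.44, Cd68 of myeloid cells by 0.17, and the erythroid Slc4a1 and Hba-a1 by -0.74 and 0.18. In the T cell and the melanocyte list, 1 of the lower genes was detected on CON alone. The part of each of these lists was not tested.

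The share of the 25697 probes that was detected was 40.6% for DKO and 41.9% for CON. The brightest Vdr probe read 10.06 on DKO and 10.17 on CON, the 3 Vdr probes differed by -0.12, -0.24 and -0.82, and Casr had 1 probe, which neither array detected. The tables do not say whether these probes lie in the deleted exons, so they check nothing. The pools also differed in Y-linked transcripts, as Ddx3y read 10.31 on DKO and 6.89 on CON, and the part of sex in the differences of the mitotic genes was not tested.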

How the data were processed

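RNA of 1 DKO pool and 1 CON pool was measured on Illumina arrays. The submitters' processing notes name GenomeStudio 2011.1. The authors deposited each probe's raw intensity and its detection p-value, and a table of normalized intensity. The method of that normalization is not stated in the labels or headers used here. Per the file headers, a line above the column names ties columns to pools. The series value table differs from the normalized table at 0 probes. Raw intensities were background-corrected from the detection p-values (neqc, normexp offset 16), quantile-normalized and put on the log2 scale with limma 3.58.1 in R 4.3.3. The steps were tested on simulated data built from the CON array alone. Changes were put only into detected probes with raw signal above 2 times the background, so recovery at dimmer probes was not tested. Simulated 1.5-fold changes (log2 size 0.585) came back at medians of -0.54 when lower and 0.53 when higher, short of the 1.5-fold rule. Simulated 2-fold changes came back at -0.95 and 0.96. Probes were named through RefSeq (GRCm38.p6), where 16938 of 25697 matched on the gene identifier, 7420 on an accession and 465 on the symbol in use now, 552 had 1 matching older symbol, and 322 kept the array's name. Probe positions were not used here. A dim value's bound is the higher of its own signal and the array's lowest detected signal (log2 5.38 on DKO, 5.28 on CON). With 1 array per group no test was run, and genes were counted by fold rules of 1.5 and 2. The 36 genes were named in full where detected. Other lists were named by their largest differences (up to 4 per mitotic, replication or G1 list and 2 per marker list). Pcna, Mcm2, Ccnd1, Cdkn1a, Cdkn1b and Cdkn1c were named whatever their difference. The CD3 genes of the T cell list were added after the values had been seen. Members, lists and rules were chosen with earlier results of these data known.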

Additional observations from a re-analysis of the deposited data

How the results depend on the processing

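No paired analysis was possible because each group has 1 array and the labels carry no replicate numbers, and no replicate could be left out. There were 11 alternatives, all planned. Each of the 23 detected genes kept its sign wherever it had a value from its main probe or the mean of its probes. The 3 changes of the detection filter left each gene's value as reported, so no sign could change under them. Dim values at their bound changed Tpx2 alone, and the series value table repeats the authors' table. Lower were 22 of 23 genes, except 21 of 22 with detection on both arrays and 27 of 32 with no filter on dim probes. Where 22 of 23 were lower, so were 50.8% to 64.4% of all genes counted. That share was 51.3% with detection on both arrays and 50.3% with no filter. With every detected probe counted on its own, 28 of 31 were lower, against 50.6% of all detected probes. All 11 alternatives reuse the same 2 arrays. Median scaling moved the median of all genes to -0.13 (64.4% lower, against 52.6%), and that of the mitotic genes to -0.39, so the distance between them was -0.26 under both scalings. The mitotic median was -0.18 without background correction and -0.20 in the authors' deposited table and in the series value table, which carry background. At least 1.5-fold lower were 5 genes under median scaling (Kif22 and Cdc20 added) and 1, Nusap1, without background correction, with an offset of 50, and in the authors' deposited table and the series value table. Of all genes counted, 10.6% were at least 1.5-fold lower under median scaling, against 7.37% as reported. That share was 1.499% without background correction, 3.187% with an offset of 50 and 1.546% in the authors' and series tables. The median of the other mitotic genes was -0.26 under median scaling, -0.078 without background correction, -0.12 with an offset of 50, -0.088 in the authors' and series tables, -0.11 with no filter on dim probes, -0.14 with detection on both arrays and -0.14 with probes averaged. That of DNA replication genes was -0.47, -0.22, -0.29, -0.21 and -0.30 under the first 5 of these. The cause of these shifts was not tested. Signal over background limits the 9 undetected genes and Tpx2.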

Other observations

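Regulators of the G1 phase, which decide whether a cell enters the cycle at all, were mixed, with most of them lower. The list held 20 detected G1 cyclins, cyclin-dependent kinases, their inhibitors and genes of the E2F and RB families. Of these 15 were lower and 5 higher in DKO, with a median difference of -0.14 (log2, DKO minus CON). Of all detected genes 52.6% were lower. Of the 19 G1 genes detected on both arrays, 14 were lower and 5 higher, with a median of -0.13. Ccnd1, cyclin D1, read 11.54 on DKO and 12.45 on CON, a difference of -0.91, and its 3 detected probes spread from -0.91 to -0.69. E2f1, a transcription factor of S-phase genes, differed by -0.50. Inhibitors of cyclin-dependent kinases went both ways. Cdkn2b, which encodes the inhibitor p15 of cyclin D kinases, read 7.14 on DKO and 6.43 on CON, a difference of 0.71. Cdkn1c, which encodes the inhibitor p57, read 6.84 on DKO and 7.55 on CON, a difference of -0.71. Cdkn1a, which encodes p21, differed by 0.16 and its other detected probes reached down to -0.08, and Cdkn1b, which encodes p27, differed by -0.13.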
